A study of Mus musculus with 18 samples.

Results

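Transcripts of the Hox clusters were followed across cerebral cortex, hippocampus and brainstem of mice with and without the transcription factor Nrf2. The members were all array probes whose identifier led, through a RefSeq gene table, to a symbol made of Hoxa, Hoxb, Hoxc or Hoxd and a number. This rule found 47 of 41174 probes, which stood for 37 symbols, namely 36 Hox protein genes and the antisense transcript Hoxd3os1. There were 11 Hoxa, 10 Hoxb, 6 Hoxc and 9 Hoxd protein genes, and Hoxc4, Hoxc6 and Hoxc11 were not analysed here. Where several probes stood for a gene, the probe with the highest mean over all arrays was used, and the other probes are given where they differ.

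The tissue came from unstressed male 129SV mice, either wild type (Nrf2WT) or Nrf2 knockout (Nrf2KO; the gene symbol is Nfe2l2). Nrf2 activates genes of antioxidant defence and detoxification. The 6 groups, wild-type and knockout cortex, hippocampus and brainstem, had 3 arrays each. The age of the mice and the construction of the allele are not given in the sources used here. The design text speaks of independent RNAs, but the labels do not say how samples of different regions relate, so p-values measure only the spread between these samples.

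Hox genes encode homeodomain transcription factors that give cells of the embryo their position along the head-to-tail axis. They are ordered along each chromosome as they are used along the body: genes with low paralogue numbers are active from the hindbrain backwards, and genes with high numbers only in the spinal cord and tail. Forebrain and midbrain develop without Hox expression, and many neurons of the hindbrain keep their Hox code into adult life. A paralogue number is shared by genes of different clusters that descend from 1 ancestral gene.

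Between 65.3% and 75.1% of an array's spots exceeded background clearly, and saturation occurred on 0 spots. The number of arrays limits the precision. The log2 level of Nfe2l2, the targeted gene, was 0.79 to 1.39 on the wild-type arrays of all regions and -8.39 to -3.62 on the knockout arrays. Its other probe was at 0.12 to 0.77 and at -8.22 to -4.08. Among knockout arrays, both probes were clearly above background on all hippocampal ones and on brainstem_KO 3, and on none of the others. Region labels were checked with marker genes. Of the telencephalon markers, 7 of 7 tested were lower in wild-type brainstem than in cortex, and of the brainstem markers, 7 of 7 were higher. Of the hippocampus markers, 6 of 7 were higher in wild-type hippocampus than in cortex. Over all tested genes, 19.1% were higher and 16.6% lower in wild-type brainstem than in cortex, and 6.79% were higher in hippocampus. Brainstem samples also had higher markers of midbrain and thalamus (8 of 8 tested) than cortex, so the dissected piece was not hindbrain alone by these markers. Markers of cerebellum were higher too (5 of 6). The part of either set in the Hox results was not tested.

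Hox transcripts were largely a brainstem signal (map of arrays above background). A level is the log2 processed intensity minus the 75th percentile of the array, and a probe counts as measured on an array where the scanner software marked it as well above background. Of the 37 symbols, 2 to 4 were measured on a cortical array, 4 to 8 on a hippocampal array and 15 to 20 on a brainstem array. On all 3 arrays of a group, 2 were measured in wild-type and 2 in knockout cortex, 5 and 2 in hippocampus, and 17 and 15 in brainstem. The 2 genes in cortex were Hoxa3 and Hoxa7. RNA of whole tissue cannot tell apart fewer cells that express a gene and less RNA per cell.

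**Figure D1:**
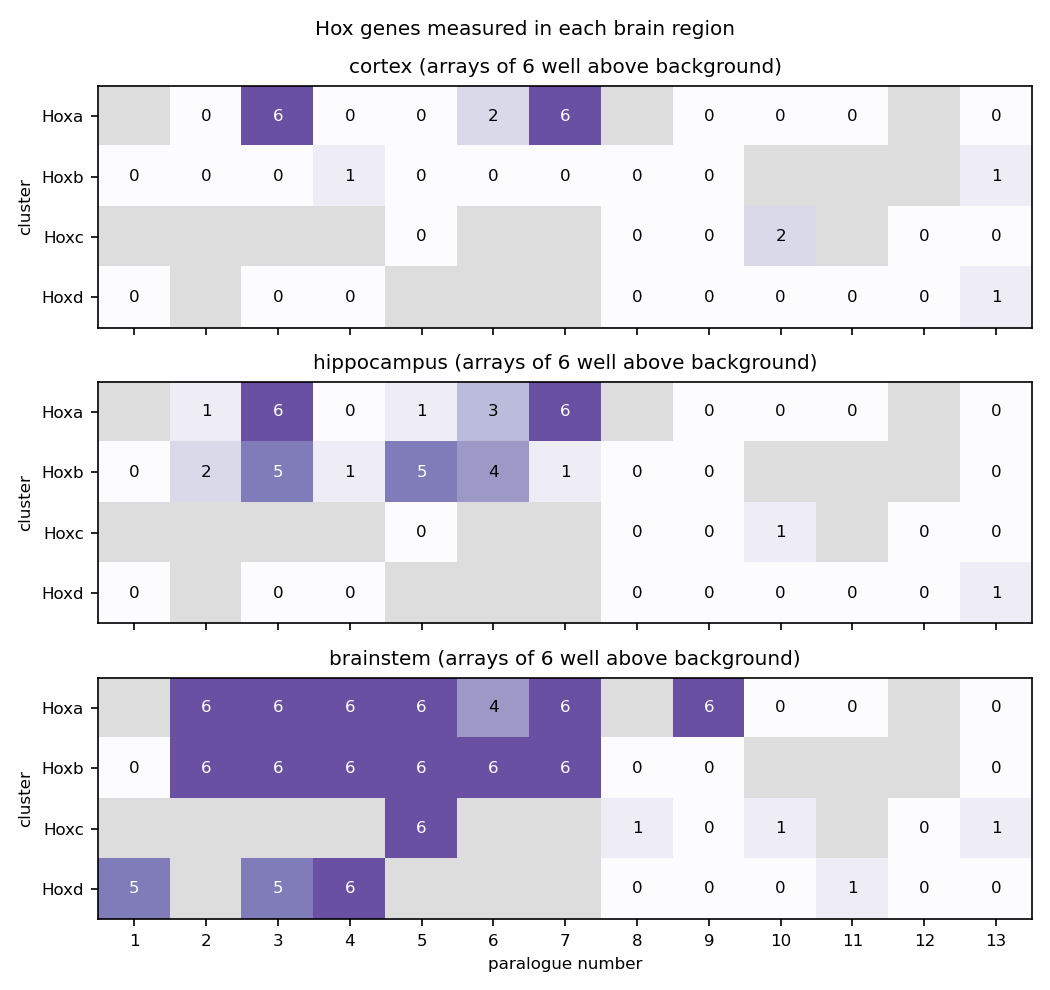
Number of arrays, of 6 per region (3 wild type and 3 knockout), on which each Hox gene was well above background, by cluster (rows) and paralogue number (columns), with grey cells where no value is shown. In brainstem the numbers reach 6 for paralogues up to 7 and for Hoxa9, whereas in cortex they reach 6 for Hoxa3 and Hoxa7.

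In the Hoxa, Hoxb and Hoxd clusters, genes measured on 4 to 6 brainstem arrays were followed towards the posterior end by genes measured on 0 or 1. In the Hoxa cluster, Hoxa2, Hoxa3, Hoxa4, Hoxa5, Hoxa7 and Hoxa9 were above background on 6 of 6 brainstem arrays, and Hoxa10, Hoxa11 and Hoxa13 on 0. In the Hoxb cluster, Hoxb2 to Hoxb7 were measured on all 6, and Hoxb1, Hoxb8, Hoxb9 and Hoxb13 on 0. In the Hoxd cluster, Hoxd4 was measured on 6, Hoxd1 and Hoxd3 on 5, Hoxd11 on 1, and Hoxd8, Hoxd9, Hoxd10, Hoxd12 and Hoxd13 on 0. Of the Hoxc genes, Hoxc5 was measured on 6, Hoxc8, Hoxc10 and Hoxc13 on 1 each, and Hoxc9 and Hoxc12 on 0, and since its neighbours Hoxc4 and Hoxc6 were not analysed, no end could be placed in this cluster. By paralogue number, 9 of 10 genes numbered 4 to 7 and 5 of 8 numbered 1 to 3 were measured on all 6 brainstem arrays, against 0 of 3 numbered 8, 1 of 4 numbered 9 and 0 of 11 numbered 10 to 13. A gene below background may still be expressed at a level the array does not resolve.

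Promoters on both sides of these ends are shown to let them be read side by side: Hoxd4 and Hoxd8 in the Hoxd cluster, and Hoxa9 and Hoxa10 in the Hoxa cluster. The listed start of Hoxd3, measured on 5 brainstem arrays, lies between those of Hoxd4 and Hoxd8 and is not printed. The sequences come from RefSeq (GRCm38.p6), run 5′ to 3′ on the strand of the gene from 250 bases before to 50 bases after its start, and have in capitals each match to AGGTCA, TGATNNAT or TATAAA on either strand. The first is a half-site of the retinoic acid receptor, the second a site bound jointly by Hox and Pbx proteins, and the third a TATA box. Hoxd4 lies at chr2:74721728-74722027 (plus strand), Hoxd8 at chr2:74704365-74704664 (plus strand), Hoxa9 at chr6:52227321-52227620 (minus strand) and the Hoxa10 start shown, 1 of 2 listed, at chr6:52234890-52235189 (minus strand).
Hoxd4: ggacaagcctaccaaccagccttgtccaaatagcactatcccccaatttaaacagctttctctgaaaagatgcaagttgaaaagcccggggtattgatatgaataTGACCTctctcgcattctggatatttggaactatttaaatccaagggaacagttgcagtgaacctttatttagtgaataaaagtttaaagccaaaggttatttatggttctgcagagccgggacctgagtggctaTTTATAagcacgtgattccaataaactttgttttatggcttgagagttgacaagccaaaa
Hoxd8: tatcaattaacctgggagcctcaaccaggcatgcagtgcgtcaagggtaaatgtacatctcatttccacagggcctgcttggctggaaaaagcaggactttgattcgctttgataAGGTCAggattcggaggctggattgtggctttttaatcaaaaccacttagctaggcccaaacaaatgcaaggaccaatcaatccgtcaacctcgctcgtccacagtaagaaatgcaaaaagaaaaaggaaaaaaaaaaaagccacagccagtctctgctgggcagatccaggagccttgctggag
Hoxa9: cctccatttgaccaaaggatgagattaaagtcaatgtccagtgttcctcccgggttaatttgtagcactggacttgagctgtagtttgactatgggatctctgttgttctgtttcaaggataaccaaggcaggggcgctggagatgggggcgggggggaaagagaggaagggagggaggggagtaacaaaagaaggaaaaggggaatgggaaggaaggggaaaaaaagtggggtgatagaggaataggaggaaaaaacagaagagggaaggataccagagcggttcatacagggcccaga
Hoxa10: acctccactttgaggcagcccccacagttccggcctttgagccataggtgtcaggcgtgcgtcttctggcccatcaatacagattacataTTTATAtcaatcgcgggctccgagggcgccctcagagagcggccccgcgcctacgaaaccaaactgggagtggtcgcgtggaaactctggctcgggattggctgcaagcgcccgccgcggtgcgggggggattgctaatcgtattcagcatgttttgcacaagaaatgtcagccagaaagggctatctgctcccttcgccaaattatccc
Both Hoxd promoters held a retinoic acid receptor half-site, Hoxd4 in the reverse orientation (TGACCT), although Hoxd4 was measured on every brainstem array and Hoxd8 on none. Hoxa9 held none of the 3 motifs in this window, and Hoxa10 and Hoxd4 each held the TATA box letters in the reverse orientation (TTTATA).

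In all, 24 promoters of 22 Hox symbols were in the table. The half-site AGGTCA was in 6 of the 24 (25% against 16.26% of 32851 promoters of all genes), in Hoxa5, Hoxb4, Hoxd3, Hoxd4, Hoxd8 and Hoxd10. The Hox and Pbx site was in 4 (16.67% against 8.846%), among them Hoxb1 and Hoxa2, and TATAAA in 4 (16.67% against 13.62%). Matches that overlap are each counted, and a match is a run of letters, not a bound site. The median number of CpG dinucleotides per promoter was 14.5 for Hox and 7 for all genes.

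A fold cannot be computed where cortex was below background, so for a gene measured on 3 of 3 arrays of 1 group and 0 of 3 of the other a least fold is given. In that case the lower group's mean was taken over stand-in values: per array, the dimmest probe still scored as well above background, unless the gene's own reading was brighter. The words "at least" refer to these stand-in values and the scanner's background correction. With the 95th percentile of the probes below background as stand-in, least folds over wild-type cortex were 2.26 to 204 in place of 2.40 to 216. Differences with ± are from the fit over all 18 arrays, on the log2 scale with standard error, and adjusted p-values are those of limma over 22675 genes.

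The group with low numbers, which patterns the anterior hindbrain, is described through Hoxa2 and Hoxb2.

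Hoxa2, which specifies the most anterior Hox-positive hindbrain segment and the second branchial arch, was at -2.88, -2.995 and -3.13 in wild-type and at -2.70, -3.38 and -2.77 in knockout brainstem. Outside brainstem it was measured on 1 array, hippocampus_KO 3, at -4.97. All brainstem arrays lay above it. The least fold over cortex was 11.6 in wild type (adjusted p = 1.50e-05) and 11.1 in knockout (adjusted p = 1.70e-05), and the least fold over wild-type hippocampus was 13.6 (adjusted p = 5.33e-05).

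Hoxb2, which acts with Hoxb1 in the segment that forms the facial motor nucleus, was at -0.43, -0.64 and -0.59 in wild-type and at -0.77, -0.81 and -0.12 in knockout brainstem. Cortical readings were below background, and the only hippocampal arrays above it were hippocampus_WT 3 at -6.33 and hippocampus_KO 1 at -4.89. Brainstem did not overlap with any other array. Hoxb2 was at least 63.5-fold higher in wild-type brainstem than in cortex (adjusted p = 1.22e-07) and at least 58.0-fold in knockouts (adjusted p = 1.44e-07). Hoxb1, its neighbour in the cluster and active in the same embryonic segment, was above background on 0 of 18 arrays.

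**Figure D2:**
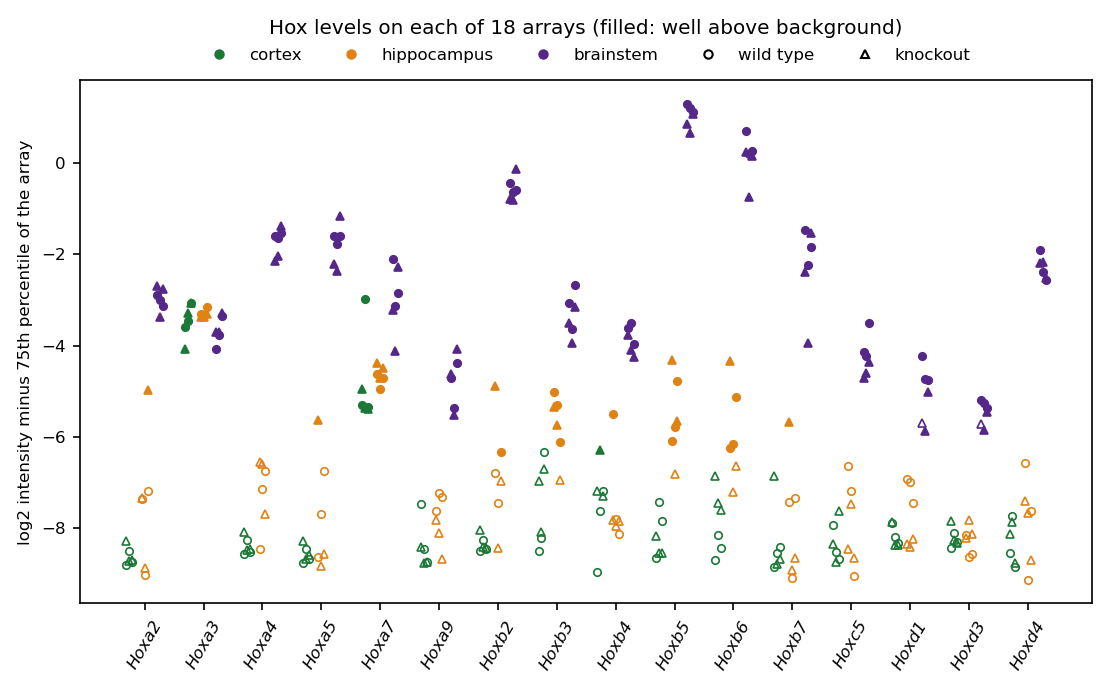
Level of 16 Hox genes on each of 18 arrays (y axis, log2 intensity minus the 75th percentile of the array; circles wild type, triangles knockout; filled symbols well above background), with cortex, hippocampus and brainstem from left to right within a gene. For the genes drawn that were measured on all 6 brainstem arrays, the brainstem symbols lie above all others except for Hoxa3 and Hoxa7; levels of different genes come from different probes and are not comparable.

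The genes numbered 3 were read by several probes that did not agree. The Hoxa3 probe with the highest mean was measured on all 18 arrays, at -4.08 to -3.28 in brainstem, -3.37 to -3.15 in hippocampus and -4.08 to -3.06 in cortex, and these ranges overlapped. Its brainstem to cortex difference was -0.37 ± 0.24 in wild type (adjusted p = 0.256) and -0.08 ± 0.24 in knockout (adjusted p = 0.83). The other Hoxa3 probe was at -5.04, -5.31 and -5.78 in wild-type brainstem, was measured on 1 of 3 knockout brainstem arrays, at -5.75, and was below background on all 12 other arrays. This probe was at least 2.25-fold higher in wild-type brainstem than in cortex (adjusted p = 1.88e-07 over all probes). Which transcripts the probes measure was not tested.

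Hoxb3, which helps to specify segments of the middle hindbrain, was at -3.07, -3.63 and -2.67 in wild-type and at -3.50, -3.95 and -3.14 in knockout brainstem. It was also measured on all 3 wild-type hippocampal arrays, at -5.01, -5.31 and -6.13, and on knockout hippocampal arrays 1 and 2, at -5.35 and -5.74. Every brainstem array lay above every other array, whereas hippocampal and cortical readings overlapped, the cortical ones all being below background. Brainstem was at least 9.99-fold above cortex in wild type (adjusted p = 1.66e-05) and 5.14-fold above hippocampus (adjusted p = 0.00358).

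The other Hoxb3 probe was at -2.30, -2.36 and -1.95 in wild-type and at -2.77, -2.52 and -1.69 in knockout brainstem, and on no hippocampal array was it above background. It was measured on 1 cortical array of each genotype, at -5.63 and -5.72, so the hippocampal Hoxb3 signal was seen by 1 of 2 probes. Hoxd3, the paralogue in the Hoxd cluster, was at -5.19, -5.27 and -5.37 in wild-type brainstem and at -5.85 and -5.46 on the 2 knockout arrays that measured it. It was at least 2.40-fold higher than in cortex (adjusted p = 5.44e-09), close to the detection limit. With normexp background correction the limma difference was 0.17 on the log2 scale, and the call was lost (adjusted p = 0.309). The other Hoxd3 probe was above background on no array, and Hoxd3os1 was not either.

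Hoxd1 lay near the limit too. It was at -4.22, -4.73 and -4.75 in wild-type brainstem, and at -5.87 and -5.03 on the 2 knockout arrays that measured it. Cortex and hippocampus were below background throughout. The least fold over wild-type cortex was 3.93 (adjusted p = 2.27e-08).

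Genes numbered 4 to 7 pattern the caudal hindbrain and the cervical cord, and they made up the largest group in brainstem. Hoxa4 was at -1.58, -1.65 and -1.52 in wild-type and at -2.14, -2.04 and -1.38 in knockout brainstem, with 0 of 12 other arrays above background. It was at least 31.1-fold higher than in cortex in wild type (adjusted p = 5.03e-09) and at least 23.8-fold in knockout (adjusted p = 9.02e-09). Its other probe, at -4.18 to -3.94 in wild-type and -4.75 to -4.29 in knockout brainstem, had the same distribution over regions.

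Hoxb4 was at -3.62, -3.51 and -3.97 in wild-type and at -3.78, -4.10 and -4.26 in knockout brainstem. It was above background on 2 other arrays, hippocampus_WT 1 at -5.50 and cortex_KO 2 at -6.29, both below every brainstem array. The least fold over wild-type cortex was 7.17 (adjusted p = 3.29e-05). Hoxd4, a textbook target of retinoic acid in the hindbrain, was at -1.89, -2.38 and -2.56 in wild-type and at -2.18, -2.18 and -2.51 in knockout brainstem and below background elsewhere. It was at least 19.2-fold higher in brainstem than in cortex in wild type (adjusted p = 3.93e-07) and at least 17.5-fold in knockout (adjusted p = 5.05e-07), so the 4 promoters printed above belong to genes on both sides of detection.

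Hoxa5, which is needed for respiratory motor circuits and the lung, was at -1.60, -1.77 and -1.58 in wild-type and at -2.21, -2.35 and -1.15 in knockout brainstem. The single other array above background was hippocampus_KO 1, at -5.64. Hoxa5 was at least 29.7-fold higher in wild-type brainstem than in cortex (adjusted p = 1.08e-06) and at least 33.7-fold higher than in hippocampus (adjusted p = 3.49e-06).

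Hoxb5, a gene of the caudal hindbrain and of vagal neural crest, was at 1.30, 1.22 and 1.12 in wild-type and at 0.86, 0.67 and 1.08 in knockout brainstem, which is above the 75th percentile of the array. It was at least 216-fold higher than in cortex in wild type (adjusted p = 3.66e-09) and at least 157-fold in knockout (adjusted p = 3.50e-09). Both regions were measured against hippocampus in wild type, with a fold of 109 (adjusted p = 5.89e-08).

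Hoxb6 was at 0.70, 0.21 and 0.27 in wild-type and at 0.26, -0.73 and 0.17 in knockout brainstem, with all cortical arrays below background. Its least fold over cortex was 122.5 in wild type (adjusted p = 2.24e-08) and 79.9 in knockout (adjusted p = 1.69e-07), and its fold over wild-type hippocampus was 75.8 (adjusted p = 5.23e-07). Hoxb7 was at -1.45, -2.22 and -1.83 in wild-type and at -2.38, -3.94 and -1.52 in knockout brainstem. One other array measured Hoxb7, hippocampus_KO 1 at -5.69. The least fold over cortex was 26.1 in wild type (adjusted p = 1.26e-05) and 13.99 in knockout (adjusted p = 9.28e-05).

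Hoxc5, expressed in cervical cord motor columns, was at -4.14, -4.22 and -3.50 in wild-type and at -4.71, -4.59 and -4.36 in knockout brainstem, and below background on the 12 other arrays. It was at least 6.01-fold higher than in cortex in wild type (adjusted p = 7.15e-06) and at least 3.65-fold in knockout (adjusted p = 4.22e-05).

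Hoxa7 differed from its neighbours in that it was measured everywhere. Its levels were -2.11, -3.12 and -2.84 in wild-type and -3.23, -4.11 and -2.27 in knockout brainstem, and -4.95 to -4.38 in hippocampus. In cortex 5 arrays lay at -5.39 to -4.95, while cortex_WT 2 was at -2.98, within the brainstem range. Hoxa7 was 3.61-fold higher in wild-type brainstem than in cortex (1.85 ± 0.54, adjusted p = 0.0143), and 4.10-fold in knockouts (adjusted p = 0.00818). The wild-type difference was 2.63 without cortex_WT 2, and it was not called without cortex_WT 1 (adjusted p = 0.0702), cortex_WT 3 (adjusted p = 0.0729) or brainstem_WT 1 (adjusted p = 0.0665), or when only these 2 groups were fitted (adjusted p = 0.0839). Against hippocampus the fold was 4.21 in wild type (adjusted p = 0.0062) and 2.51 in knockout (adjusted p = 0.0623); without brainstem_KO 2 the knockout comparison had an adjusted p of 0.0226.

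Hoxa6, between Hoxa5 and Hoxa7, read close to background in every region, at -6.16 to -5.42 in brainstem, -6.50 to -5.84 in hippocampus and -6.86 to -5.74 in cortex, and was above it on 4, 3 and 2 arrays. Hoxa9, a gene of the cervical and thoracic cord known for its role in leukaemia, was the last Hoxa member measured. It was at -4.71, -5.38 and -4.38 in wild-type and at -4.62, -5.51 and -4.08 in knockout brainstem, and below background on the 12 other arrays. Its least fold over cortex was 3.30 in wild type (adjusted p = 6.03e-06) and 3.21 in knockout (adjusted p = 1.59e-06).

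Posterior genes gave scattered readings above background. Hoxc13, a gene of hair and tail, was measured on brainstem_WT 1 alone, at -3.38, and Hoxd11 there too, at -6.12. Hoxc8 was measured on brainstem_KO 2, at -5.34. Hoxd13 was measured on cortex_WT 1 at -6.51 and hippocampus_KO 3 at -4.25, whereas its other probe was above background on 0 of 18 arrays. Hoxb13 was measured on cortex_WT 3, at -4.77. Hoxc10 was above background on 2 cortical, 1 hippocampal and 1 brainstem array with its main probe, and with the other probe on brainstem_WT 1 alone, at -5.01. None of these was measured on 2 arrays of 1 group. Brainstem_WT 1 also had the most spots left out as outliers, 140 of a range of 30 to 140 per array.

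**Figure D3:**
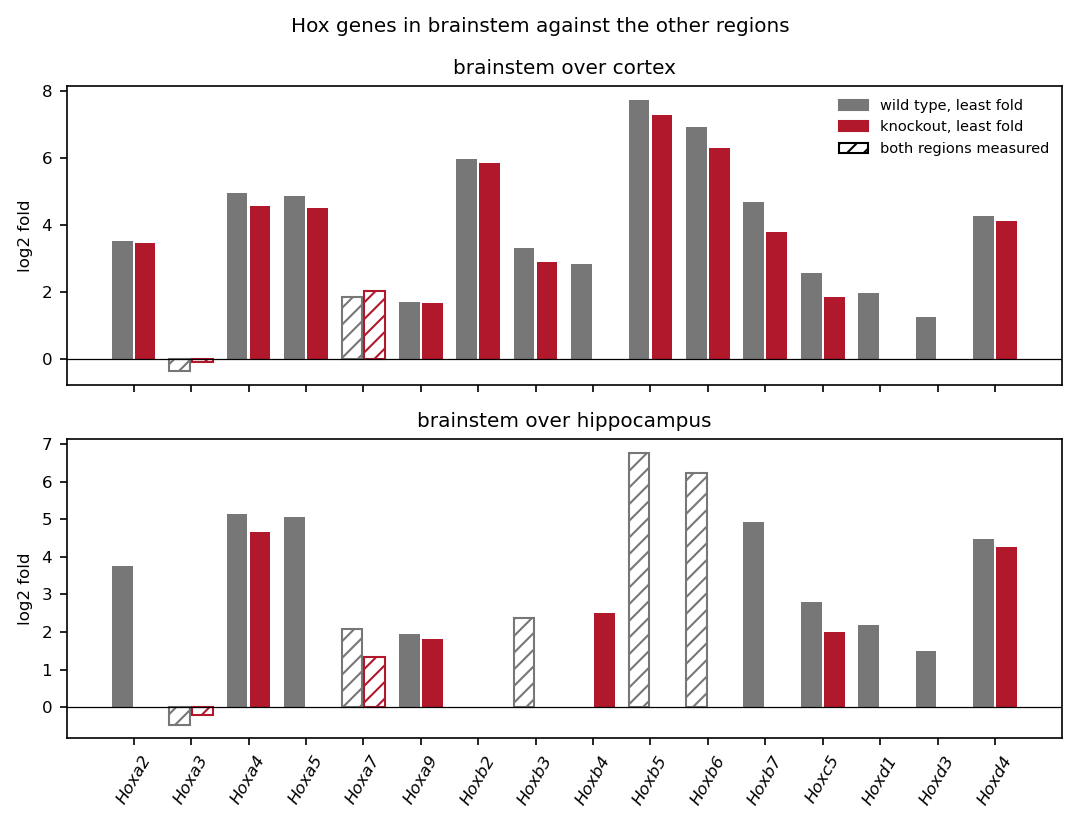
Log2 fold of brainstem over cortex (top) and over hippocampus (bottom) for 16 Hox genes in wild-type (grey) and knockout (red) mice, as a least fold where only brainstem was above background on all arrays (solid) and as a measured fold where both regions were (hatched); no bar is drawn where only some arrays of a group measured the gene. Hoxb5 reaches at least 216-fold over cortex, and the bars of Hoxa3 lie just below 0.

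Of the 37 symbols, 17 passed the filter of being above background on all 3 arrays of a group, 12 of them only through brainstem, so those 12 had to differ. In wild type, limma called 16 of the 17 higher in brainstem than in cortex, where 35.8% of all tested genes were called and 19.1% were higher. Against hippocampus it called 16 higher (41.5% called, 23% higher). In knockouts it called 16 against cortex (35.6% called, 18.9% higher) and 15 against hippocampus (40.6% called, 21.7% higher). With no filter, all 37 could be tested, and the counts were 16 and 17 in wild type and 16 and 16 in knockouts, against 23.2%, 27.5%, 22.9% and 26.3% of all 32301 genes. Both comparisons with brainstem share the brainstem arrays of a genotype.

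The fitted differences contain readings below background, so no median over the members is given for the regions. With normexp background correction, 15 of the 17 were called in wild-type brainstem against cortex. The knockout calls of Hoxd1 and Hoxd3 against cortex were lost with it (adjusted p = 0.437 and 0.135). Of the 15 genes above background on all 6 brainstem arrays, 13 had every brainstem array above the 12 others, against 13.8% of the 26026 probes above background on all 6. Members below background on the 12 others, such as Hoxa4, Hoxa9, Hoxc5 and Hoxd4, could hardly overlap. This count therefore adds no separate evidence of a difference between regions. Cortical arrays were on slides 4 and 5 with no other region, so slide and region cannot be told apart there. Slide 2 held 1 brainstem and 1 hippocampal array of each genotype. On it, Hoxb5 was at 1.12 in wild-type brainstem and -6.09 in hippocampus, and at 1.08 and -4.31 in knockouts. Hoxb6 was at 0.27 and -6.25 in wild type and at 0.17 and -4.34 in knockouts, so the order of the regions was the same within this slide for both genes.

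Besides Hoxa3 and Hoxa7, measured on all 6 hippocampal arrays, the genes measured on most of them were Hoxb3, Hoxb5 and Hoxb6, on 5, 5 and 4 arrays (plot of hippocampal arrays). Hoxb5 was at -6.09, -5.79 and -4.78 in wild-type hippocampus, and at -4.31 and -5.66 on knockout arrays 1 and 3, with array 2 below background. Hoxb6 was at -6.25, -6.16 and -5.14 in wild type and at -4.34 on knockout array 1, the others being below background. Cortex did not measure either gene on any array. In wild type, limma called 4 of 17 Hox genes higher in hippocampus than in cortex (17.2% of all genes called, 6.79% higher).

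These 4 were Hoxb5, at least 1.98-fold (adjusted p = 0.00292), Hoxb6, at least 1.62-fold (adjusted p = 0.00498), Hoxb3, at least 1.94-fold (adjusted p = 0.0141), and Hoxd1, below background in both groups (adjusted p = 0.00667). In knockouts 2 were called (16.6% called, 7.18% higher): Hoxb5 (above background on 2 of 3 arrays, adjusted p = 0.000973) and Hoxa4, below background in both (adjusted p = 0.0193). With normexp, 0 of these were called in either genotype, where 3312 and 3004 genes were called among all. These comparisons share their cortical arrays with brainstem against cortex. Hoxb3 was also not called when only these 2 groups were fitted (adjusted p = 0.0596) and in 4 of the fits that left out 1 array (adjusted p = 0.0513 to 0.0736). The knockout call of Hoxb5 was kept when any 1 array of these groups was left out (adjusted p = 9.16e-05 to 0.0054). That of Hoxa4 was lost without cortex_KO 2 (adjusted p = 0.0632), cortex_KO 3 (0.0534), hippocampus_KO 1 (0.0887) or hippocampus_KO 2 (0.0728), and with slide as a random block (0.0675).

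**Figure D4:**
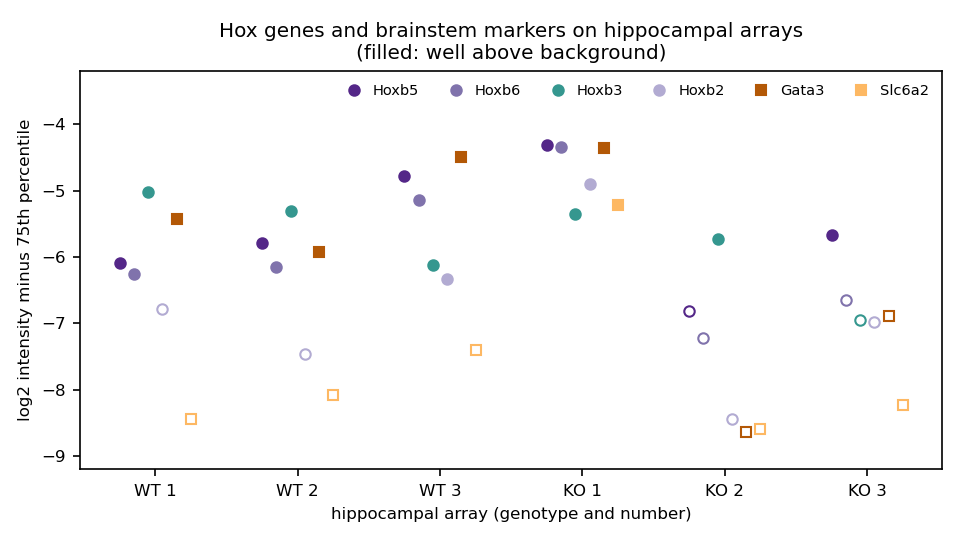
Levels of Hoxb2, Hoxb3, Hoxb5 and Hoxb6 (circles) and of the brainstem markers Gata3 and Slc6a2 (squares) on the 6 hippocampal arrays (x axis), as log2 intensity minus the 75th percentile, filled where well above background. KO 1 has the highest Hoxb5, Hoxb6 and Hoxb2 reading, and Slc6a2 is filled on KO 1 alone.

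Markers of brainstem were read on the same arrays. Gata3, a transcription factor of brainstem and midbrain neurons, was at -5.43, -5.93 and -4.50 in wild-type hippocampus, at -4.35 on knockout array 1 and below background on knockout arrays 2 and 3, and it was below background in cortex. It was thus measured on 4 of the 5 arrays that measured Hoxb5. Slc6a2, the noradrenaline transporter of locus coeruleus neurons, was measured on hippocampus_KO 1 alone, at -5.22. In brainstem, Gata3 was at -0.21 to 0.03 and Slc6a2 at -1.45 to -1.21.

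Over the 9 brainstem markers on the array, the summed log2 level was -1.40 to -0.67 in hippocampus, -1.50 to -1.10 in cortex and 1.66 to 1.74 in brainstem, and 3 of 9 were above background on 0 hippocampal arrays of either genotype. Hippocampus_KO 1 was also the 1 hippocampal array on which Hoxa5 and Hoxb7 were measured. Choroid plexus RNA varied between hippocampal arrays, with Ttr at 3.71, 3.30 and -2.40 in wild type and at 3.21, -2.11 and -1.52 in knockout. Whether brainstem or choroid plexus tissue in the dissected pieces has a part in the hippocampal Hox signal was not tested.

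Loss of Nrf2 gave no called difference for Hox genes. In brainstem, limma called 0 of 17 (0.0309% of all genes), in hippocampus 0 of 17 (0.0176%) and in cortex 0 of 17 (0.0309%), and 2, 2 and 1 Hox genes had an unadjusted p under 0.05, as did 2.96%, 1.33% and 2.19% of all genes. The smallest adjusted p-values belonged to Hoxd1, in hippocampus, where neither genotype was above background (adjusted p = 0.302), and in brainstem, with a knockout difference of -0.97 ± 0.23 (adjusted p = 0.94). In brainstem the wild-type arrays, at -4.75 to -4.22, lay above the knockout arrays, at -5.87 to -5.03. The other gene with an unadjusted p under 0.05 in brainstem was Hoxd3 (-0.40 ± 0.17, adjusted p = 1).

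Of the 17 genes, 14 were lower and 3 higher in knockout brainstem, with a median of -0.34 where all tested genes had 0.003. Most of these differences were smaller than their standard errors, which were 0.17 to 0.81. The median was -0.47 on slide 1, with 2 arrays of each genotype and 1 gene higher, and 0.06 on slide 2, with 1 array of each and 10 genes higher. It was -0.12 without brainstem_KO 2. The change of the knockout effect between regions was called for 0 of 17 genes, brainstem against cortex or against hippocampus (0% of all genes in each), with 2 and 1 unadjusted p-values under 0.05 (0.886% and 0.975% of all genes).

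The spread between brainstem arrays was uneven over genes. Over the 6 arrays, the range of the 17 Hox genes had a median of 0.80, where the probes above background on all 6 had 0.53. Hoxb7 ran from -3.94 to -1.45 and Hoxa7 from -4.11 to -2.11, whereas Hoxb2 stayed within -0.81 to -0.12. Brainstem_KO 2 had the lowest reading of 12 of the 17 genes, with a median deviation from the gene mean of -0.38. Brainstem_WT 1 had the highest of 7 and brainstem_KO 3 of 6. Over all probes, the median deviation of brainstem_KO 2 was 0.02.

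**Figure D5:**
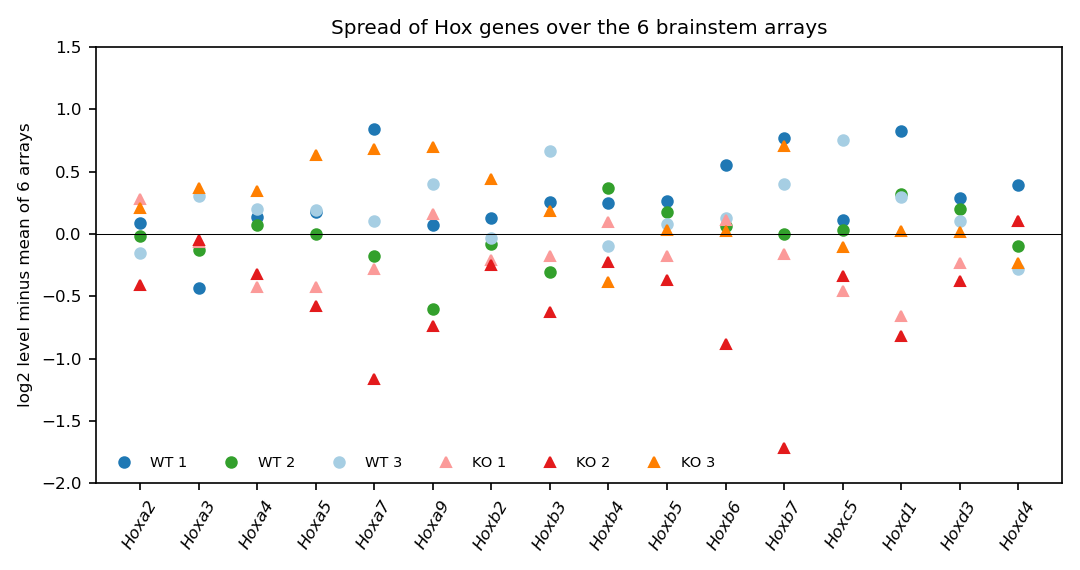
Deviation of each brainstem array from the mean of 6 arrays for 16 Hox genes (y axis, log2 units; circles wild type, triangles knockout). KO 2 is lowest for most of the genes drawn and reaches below -1.5 for Hoxb7.

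Brainstem_KO 1 had the fewest spots above background, 65.3%, and its lowest level of probes well above background was -5.50, where the other 17 arrays had -6.91 to -6.18. On this array Hoxd1 and Hoxd3, both at -5.71, counted as below background, and these are the 2 genes by which the knockout count of 15 differs from the wild-type count of 17. Both other knockout arrays measured Hoxd1 and Hoxd3.

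The partners and regulators of Hox proteins followed no common direction between wild-type brainstem and cortex. Of 9 tested cofactors, which bind DNA together with Hox proteins, 2 were higher and 4 lower (19.1% and 16.6% of all genes), with Meis1 at 1.64 ± 0.16, Pknox2 at -1.60 ± 0.16 and Pbx3 at 1.10 ± 0.21. The list had a median of -0.21. Of 15 genes of retinoic acid synthesis, breakdown and reception, the signal that opens Hox clusters in the embryo, 2 were higher and 4 lower, with a median of -0.27. Aldh1a1, a retinaldehyde dehydrogenase, was 2.24 ± 0.17 higher and Cyp26b1, which degrades retinoic acid, 1.37 ± 0.19 higher. Aldh1a3, another dehydrogenase, was at -1.65 ± 0.27.

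Factors that act upstream in hindbrain segmentation or flank the clusters went in both directions. Of 6 tested, 2 were higher and 2 lower (19.1% and 16.6% of all genes), with a median of -0.27. Egr2 (Krox20), which activates Hoxa2 and Hoxb2 in the embryo and is an activity-induced gene in adult cortex, was at -4.96 ± 0.58. Gbx2, which positions the midbrain-hindbrain border, was 4.13 ± 0.32 higher. Evx1, next to Hoxa13 at the posterior end of the Hoxa cluster, was above background on all 6 brainstem arrays, at -4.72 to -4.05, and on none of the 12 others (at least 4.92-fold higher in wild-type brainstem than in cortex, adjusted p = 2.10e-09), although Hoxa10, Hoxa11 and Hoxa13 were not measured. Evx2, at the end of the Hoxd cluster, was measured in all regions, at -6.26 to -5.12 in brainstem, with 1 array below background, and at -4.18 to -2.90 in hippocampus.

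Polycomb genes keep Hox clusters silent outside their domain. In wild-type brainstem against cortex, 1 of 16 tested was higher and 3 were lower, with a median of -0.03. Of all tested genes, 19.1% were higher and 16.6% lower, and the same shares apply to the trithorax and forebrain lists. The Polycomb differences were small, with Rnf2 at -0.63 ± 0.087, Jarid2 at -0.43 ± 0.087 and Phc3 at 0.42 ± 0.14. Trithorax genes, which keep them active, had 2 of 8 higher and 1 lower, with a median of 0.04, and included Dpy30 (0.43 ± 0.11), Wdr5 (-0.35 ± 0.087) and Rbbp5 (0.24 ± 0.085). Forebrain homeobox genes, the counterpart of the Hox code in front of the hindbrain, had 0 of 14 higher and 10 lower, with a median of -2.06. Emx1 was at -3.58 ± 0.29 and Emx2 at -2.75 ± 0.21. For none of these lists was a member called between genotypes in any region. Of all genes, 0.0309% were called between genotypes in brainstem and in cortex and 0.0176% in hippocampus.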

How the data were processed

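RNA of 18 samples was hybridised to 1-colour Agilent arrays, and per the file headers the deposited processed intensity is already background-corrected by the scanner software, with flags per spot. From it, control and outlier spots were left out, spots of a probe were averaged, and log2 of the intensity minus the 75th percentile of the array was taken. Genes above background on 3 of 3 arrays of a group were fitted over all 6 groups with limma 3.58.1 (R 4.3.3), with Benjamini-Hochberg adjustment and a threshold of 0.05. The members and gene lists were chosen with earlier results of these data known. Array values are given for genes above background on all arrays of a group; others are named if any array measured them. Markers of choroid plexus (0 of 8 called in wild-type brainstem against cortex), meninges (2 of 8 higher) and muscle and nerve (1 of 4 higher, 2 lower) were also read. In that comparison 19.1% of all genes were higher and 16.6% lower. Probes were named through a RefSeq table of another assembly than the arrays' mm9 annotation, so only promoters carry coordinates. Same-numbered wild-type and knockout samples of a region shared a slide, and their deviations correlated in 9 of 9 pairs (r of 0.239 to 0.622). Pairing by number and sharing of a slide cannot be told apart here, and correlations between different numbers were not computed. Same-numbered samples of different regions shared no slide and correlated over 0.1 in 14 of 18 pairs (-0.053 to 0.71). The 3 wild-type pairs of cortex and brainstem were at 0.381 to 0.71, and the 3 knockout pairs at -0.053 to 0.405. Whether these samples came from the same animals was not tested. Alternatives were normexp on median signals (offset 50), no filter, other detection flags, the deposited table of the series, slide and replicate blocks, fits of only the groups compared and leaving out each array. Some genes are not reported by name here, although counts and medians over lists include them.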

Additional observations from a re-analysis of the deposited data

How the results depend on the processing

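Counts of Hox genes called between brainstem and the other regions stayed within 1.5 times under every alternative run, and the counts between genotypes stayed at 0. The hippocampal counts did not. For wild-type hippocampus against cortex, 1 Hox gene was called in the deposited table, where 4 of 22675 genes were called at all (0.0176%), and 0 with normexp (14.6% of all genes). For knockouts, 0 were called in the deposited table (0 of all genes), 0 with normexp (13.2% of all genes) and 1 with slide as a random block (12.8%), and leaving out single arrays gave 1 to 4. With the replicate block, 17 Hox genes were called between wild-type brainstem and hippocampus in place of 16, Hoxa3 being lower; it changed no other count of Hox calls. By the software's weaker flag for positive and significant spots, 6 Hox genes were detected on all arrays of wild-type and 8 of knockout cortex, and 13 and 11 in hippocampus. With normexp, the wild-type hippocampus to cortex differences of Hoxa4 (-0.058), Hoxb3 (-0.225) and Hoxd1 (-0.079) changed sign. Hoxa3, not called, was at 0.145 in knockout brainstem against hippocampus with slide as a fixed block, and ran from -0.381 to 0.123 against cortex when single arrays were left out. The cause of these changes with normexp, slide block or single arrays left out was not tested. In the deposited table, 7 of 18 columns equal another array than the one named. The column named cortex_KO 3 holds hippocampus_WT 1, that named hippocampus_KO 3 holds cortex_KO 3, and that named hippocampus_WT 3 holds hippocampus_KO 1. The fit of this table went by column names, so some of its groups mixed regions or genotypes, and all groups share the estimate of the spread. Its counts therefore cannot be read as an effect of processing. Signal near background limits Hoxd1, Hoxd3, Hoxa6 and the hippocampal readings.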
